A study of Mus musculus with 2 samples.

Results

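The 8 genes described here store iron, move it across membranes, break down heme or bind metal ions: Hmox1, Fth1, Ftl1, Slc40a1, Slc11a1, Tfrc, Mt1 and Mt2. They were taken by name, and all 8 were found among the 27998 genes of the count tables. Their RNA was followed in leukocytes of inflamed mouse skin, 11934 WT and 14619 IL31RAKO cells, by cell class and by genotype. The cells were live CD45+ cells, that is, cells with the surface protein common to leukocytes, sorted from dorsal neck skin of C57Bl/6 mice. One group was wild-type (WT) and the other carried a knockout of the alpha chain of the receptor for IL-31, a T cell cytokine known for causing itch (IL31RAKO). Both groups had been treated alike with Biostir, an ointment containing the house dust mite D. farinae, on shaved skin 2 times a week for 3 weeks, with a 2% SDS solution put on 2 hours before each application. The skin of 4 mice per group was pooled before sorting, and each pool gave 1 droplet single-cell RNA library, so every comparison below is between 2 libraries and has no replicate check. No ages are given in the labels, and no untreated skin was analysed here.

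Iron inside a cell is stored in ferritin, a shell made of heavy chains (Fth1), which oxidise iron, and light chains (Ftl1). It enters bound to transferrin through the transferrin receptor (Tfrc) and leaves through ferroportin (Slc40a1), the known iron exporter of mammalian cells, while Hmox1 (heme oxygenase) frees it from heme and Slc11a1 (NRAMP1) moves metal ions out of the phagosome of phagocytes. Metallothioneins (Mt1, Mt2) are small cysteine-rich proteins that bind zinc and copper and are induced by zinc, glucocorticoids and stress.

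The WT library held 57000499 unique molecular identifiers (UMIs, each standing for 1 captured RNA molecule) and the IL31RAKO library 71333292. Of these, 46236909 and 61370565 were in the cells kept, with medians of 2918.5 and 3181 UMIs per cell. Cells were put into classes by marker genes, none of which is among the 8, and a class is called "-like" because its name was rebuilt from markers. The Retnla/Fn1 myeloid, Apod/Rbp4 dendritic and Cd7/Avil T classes are called by genes and not by a cell type. Genotypes were compared in the 17 classes that had at least 100 cells per library. Levels are a gene's UMIs scaled to counts per 1000000 UMIs of the class (CPM), and a ratio divides the IL31RAKO level by the WT level. The 95% intervals in brackets express counting error alone and no variation between mice, pools or cells. A ratio was read where both libraries together held 50 or more UMIs of the gene in the class, and was called past the fold at 1.5 or more, or at its inverse or less. Each level is set beside that in free RNA, the barcodes of 10 to 50 UMIs that hold no cell. The libraries shared 247 cell barcodes, where independent draws would share 236.6 on average. Ptprc, which encodes CD45, had 20559 and 27795 UMIs in cells, and Il31ra 11 and 26, which checks nothing, since the counted 3′ end of a transcript may survive the deletion.

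Cells read their iron supply partly through the iron-responsive element, a hairpin in RNA that iron regulatory proteins bind when iron is scarce. In a 5′ UTR such a hairpin holds back translation, and in a 3′ UTR it protects the RNA from decay. The hairpin was searched for in the mouse transcripts as a CAGTGN loop on 5 closed base pairs with a bulged C below them, G with T counted as a pair. It was found in 4 of the 8 genes. The sequences are shown because a hairpin in a 5′ UTR marks a gene whose protein level RNA counts may not follow. Those of Tfrc lie in the 3′ UTR, where the hairpin acts on the amount of RNA itself. The capitals mark the loop.
Fth1, 5′ UTR, chr19:9982735-9982760, plus strand: ctgcttcaaCAGTGCttgaacggaac
Ftl1, 5′ UTR, chr7:45459779-45459804, minus strand: ttgcttcaaCAGTGTttgaacggaac
Slc40a1, 5′ UTR, chr1:45925465-45925490, minus strand: cttcagctaCAGTGTtagctaagttt
Tfrc, 3′ UTR, chr16:32631222-32631247, plus strand: tatcggaagCAGTGCcttccataatt
Tfrc, 3′ UTR, chr16:32631601-32631626, plus strand: tatcgggagCAGTGTcttccataatg
Tfrc, 3′ UTR, chr16:32631666-32631691, plus strand: tatcggagaCAGTGAtctccatatgt
Tfrc, 3′ UTR, chr16:32631713-32631738, plus strand: tatcgggaaCAGTGTttcccataatt
Positions are in GRCm38. By the same rule, 30 of 20268 genes with a 5′ UTR (0.148%) and 128 of 20915 genes with a 3′ UTR (0.612%) held a hairpin. Tfrc was the 1 gene of those 20915 with 3 or more in the 3′ UTR of 1 transcript. The other 4 genes held no such letters in their UTRs, which says nothing more about them.

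Fth1 (ENSMUSG00000024661, GRCm38 chromosome 19, 9980598 to 9985098) was the most abundant of the 8 in neutrophil-like cells, at 19524 CPM in WT and 23409 in IL31RAKO. It made up 1.95% and 2.34% of all their UMIs and ranked 7 and 5 among all genes. In cells thinned to 1000 UMIs, so that depth was equal, the median neutrophil-like cell held 18 Fth1 UMIs in WT and 21 in IL31RAKO, with a spread between the 10th and 90th percentiles of 7 to 37 and 7 to 49. Thinning kept the 129 of 207 WT and 655 of 935 IL31RAKO cells with 1000 or more UMIs, and in these the richest 5% of cells held 13.6% and 13.97% of the Fth1 UMIs. C1q macrophage-like cells came next, at 7577 and 9652 CPM, and resident-type macrophage-like cells at 6505 and 6971. The lowest level was in cDC1-like cells, the dendritic cells known for cross-presentation, at 2270 CPM in WT and 2606 in IL31RAKO.

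T cells carried heavy-chain RNA at levels near those of phagocytes. CD8 T-like cells held 5614 CPM of Fth1 in WT and 6362 in IL31RAKO, above monocyte-like cells at 4744 and 6118 in both libraries. A UMI of Fth1 was found in 89.8% to 100% of the thinned cells of each of the 17 classes and libraries, and in 62.0% and 70.7% of thinned keratinocyte-like cells. Free RNA can give such UMIs too, and its part in these shares was not tested. Among the 17 classes, the range of the 2 libraries in neutrophil-like and in C1q macrophage-like cells did not overlap with that of the next class in the order. From resident-type macrophage-like down to Apod/Rbp4 dendritic cells each range overlapped with the next, and cDC1-like cells lay apart at the bottom. Free RNA held 6376 and 5795 CPM of Fth1, more than most classes, and 4133 and 3790 of Ftl1. Over the 17 classes and 2 libraries, 34 points that share libraries and depth, the genes with levels most like those of Fth1 were Rnf149 (Pearson r 0.910), Ninj1 (0.902) and Bcl2l11 (0.892).

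Ftl1 (ENSMUSG00000050708, chromosome 7, 45457944 to 45459884) followed another order, with macrophage-like cells first. Resident-type macrophage-like cells held 8254 CPM in WT and 9206 in IL31RAKO, and C1q macrophage-like cells 6898 and 9000.5. Neutrophil-like cells, so far ahead in Fth1, held 7597 and 7647 CPM of Ftl1, a range within that of C1q macrophage-like cells and below that of resident-type macrophage-like cells. The T classes were lowest, between 1057 CPM in WT CD8 T-like cells and 1679.9 in IL31RAKO Cd7/Avil T cells. Most like Ftl1 over the 34 points were Rbm47 (r 0.973), Rab31 (0.968) and Shfm1 (0.955), and its r with Fth1 was 0.47.

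The balance of the 2 ferritin chains therefore differed between classes, also among classes of 1 lineage. There were 5.31 UMIs of Fth1 for each of Ftl1 in CD8 T-like cells of WT skin [5.15 to 5.48] and 4.98 in IL31RAKO [4.83 to 5.13]. The other T classes lay between 2.41 and 3.91. Neutrophil-like cells stood at 2.57 and 3.06, beside the T classes rather than the macrophages. Light-chain RNA exceeded heavy-chain RNA in monocyte-like cells, at 0.801 and 0.809, in resident-type macrophage-like cells, at 0.788 and 0.757, and in cDC1-like cells, at 0.690 and 0.653. Among other phagocytes, C1q macrophage-like cells stood at 1.10 and 1.07, cDC2-like cells at 1.01 and 1.04 and Langerhans-like cells at 1.79 and 1.74. Fibroblast-like cells (43 and 44 cells), at 2.22 and 1.84, and endothelial-like cells (65 and 29 cells), at 2.26 and 1.84, lay above these and below the T classes. Basophil-like cells, with 85 and 129 cells too few for the comparison of genotypes, had the lowest balance, at 0.353 and 0.315. Both chains were counted by 3′ tags, in which a molecule counts once whatever its length. Ferritin genes have processed pseudogenes, and how reads shared with them were counted is not given in the sources used here.

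**Figure D1:**
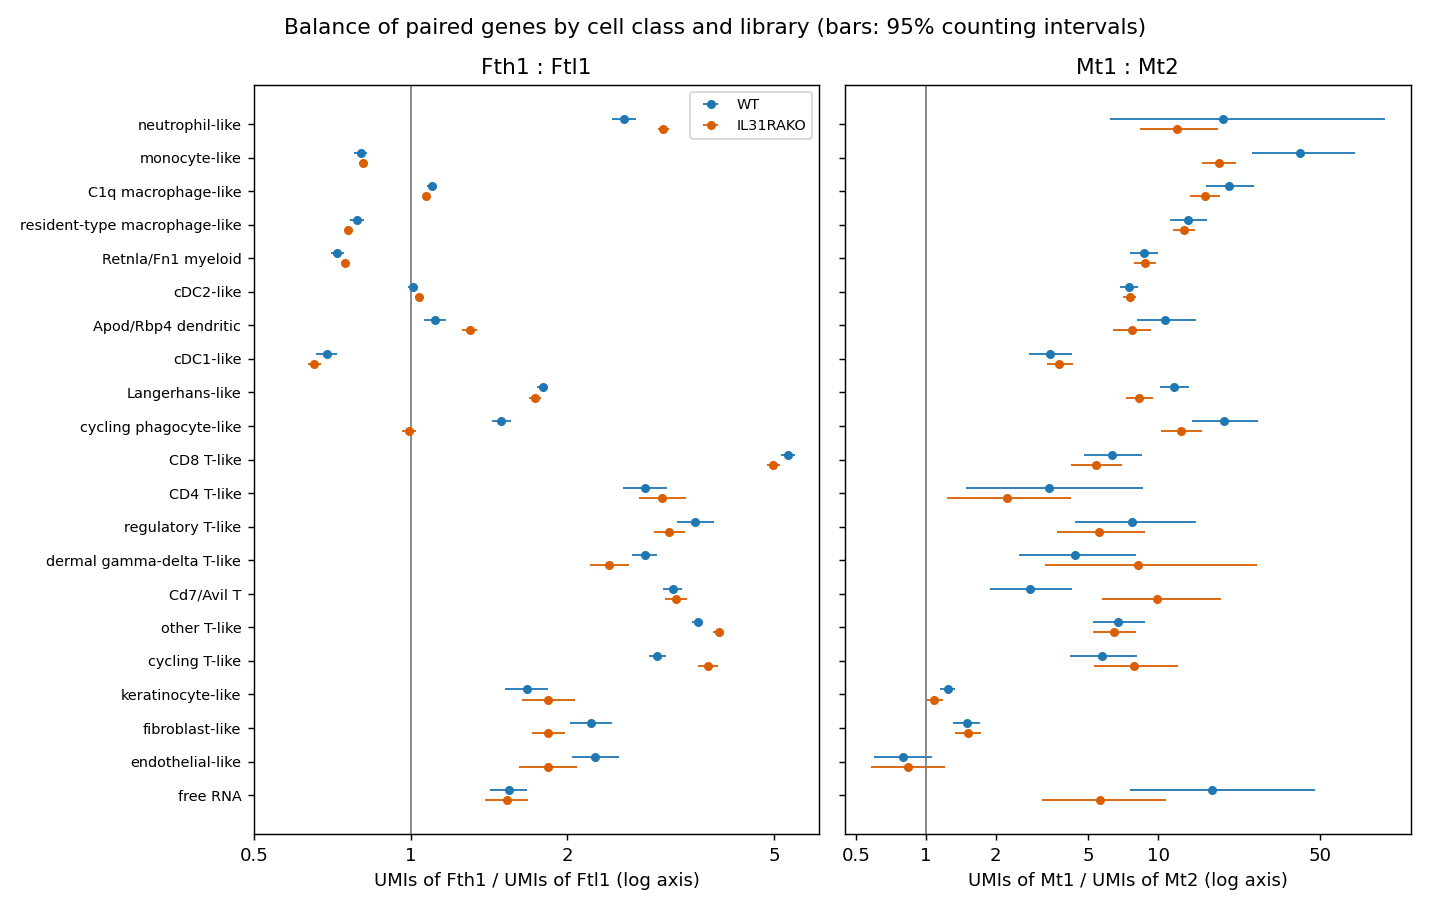
UMIs of Fth1 per UMI of Ftl1 (left) and of Mt1 per UMI of Mt2 (right) by cell class, log axes, blue for WT and orange for IL31RAKO, with 95% counting intervals as bars and free RNA in the last row. T classes lie to the right on the ferritin axis, up to 5.31, and keratinocyte-like, fibroblast-like and endothelial-like cells lie near 1 on the metallothionein axis.

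Slc40a1 (ENSMUSG00000025993, chromosome 1, 45908068 to 45926523) was rare, with 37 UMIs in all WT cells and 156 in all IL31RAKO cells, and most often seen in neutrophil-like cells. These held 15 of the 37 and 72 of the 156, that is 40.5% and 46.2% of the gene's UMIs, although they held 0.532% and 2.00% of all UMIs. Their level was 61.0 CPM in WT and 58.5 in IL31RAKO, and no neutrophil-like cell held more than 2 UMIs. After thinning, 6.20% of neutrophil-like cells had a UMI in WT [2.72 to 11.9, exact binomial] and 5.04% in IL31RAKO [3.49 to 7.003], and without thinning 6.76% and 6.63%. In CD8 T-like cells, set beside them as a class with no known role in iron export, 0 of 1516 and 0 of 1241 thinned cells had one, which allows shares of up to 0.198% and 0.242% (3 cells of the total). Such a limit is for cells with a UMI among 1000, not for cells that express the gene. Free RNA held 1 UMI in WT and 0 in IL31RAKO.

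Ferroportin is best known from macrophages that recycle red cells, yet resident-type macrophage-like cells held 0 UMIs of Slc40a1 in WT and 5 in IL31RAKO. Of 395 thinned WT cells of that class 0 had a UMI, which by the same limit allows a share of up to 0.759% with one at that depth. Each of the 16 classes other than neutrophil-like had at most 5 UMIs per library and at most 1.40 CPM. Among cells that are not leukocytes, keratinocyte-like cells held 10 and 4 UMIs, at 10.3 and 6.98 CPM, and fibroblast-like cells 0 and 8. A further 4 and 32 UMIs were in cells that met gates of more than 1 class and were left out. Most like Slc40a1 over the 34 points were Retn (r 0.996), Mrgpra2b (0.996) and Mrgpra2a (0.994), a likeness that rests on 1 high class.

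Slc11a1 (ENSMUSG00000026177, chromosome 1, 74375195 to 74386062), known for limiting the growth of microbes inside phagosomes, was highest in phagocytes. Neutrophil-like cells held 77.3 CPM in WT and 80.5 in IL31RAKO. Monocyte-like cells held 32.1 and 43.5, C1q macrophage-like cells 28.1 and 30.04, resident-type macrophage-like cells 31.7 and 28.9 and Retnla/Fn1 myeloid cells 14.6 and 19.7. Every other class lay at or below 8.20 CPM, under the free RNA levels of 12.7 and 15.8. After thinning, 7.75% and 8.24% of neutrophil-like cells had a UMI, against 0.198% and 0.242% of CD8 T-like cells. Most like it over the 34 points were Cyp4f18 (r 0.948), Cd300ld (0.948) and Fcgr4 (0.944).

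Hmox1 (ENSMUSG00000005413, chromosome 8, 75093621 to 75100589), the heme-degrading enzyme, was highest in resident-type macrophage-like cells, at 188 CPM in WT and 185 in IL31RAKO. After thinning, 16.96% and 15.2% of these cells held a UMI, against 1.06% and 1.13% of CD8 T-like cells. The level fell stepwise through C1q macrophage-like cells (101 and 131 CPM), Retnla/Fn1 myeloid cells (86.4 and 88.7) and monocyte-like cells (65.8 and 92.1), of which the last 2 overlapped. Neutrophil-like cells held 28.5 and 55.3 CPM and cDC2-like cells 22.0 and 34.0. T classes lay at or below 12.7 CPM, under the free RNA levels of 46.7 and 31.6. The genes most like Hmox1 over the 34 points were Ctsl (r 0.937), which encodes a lysosomal protease, Apobec1 (0.936) and Ly96 (0.928), and among the 8 genes it was Ftl1 (0.864).

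Tfrc (ENSMUSG00000022797, chromosome 16, 32608920 to 32632794) was low throughout. Resident-type macrophage-like cells were highest, at 26.6 CPM in WT and 25.2 in IL31RAKO, with no overlap with the next class. Regulatory T-like cells followed at 15.6 and 14.6. Cycling T-like cells, in which iron demand for growth is known to be high, held 10.4 and 17.7 and overlapped with their neighbours. Free RNA held 12.7 and 21.1 CPM (3 and 4 UMIs), and only resident-type macrophage-like cells of WT had an interval above it. Basophil-like cells held 0 UMIs in both libraries. No gene was closely like Tfrc, the first being Trip12 (r 0.664), Dync1i2 (0.659) and Frmd4b (0.628).

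**Figure D2:**
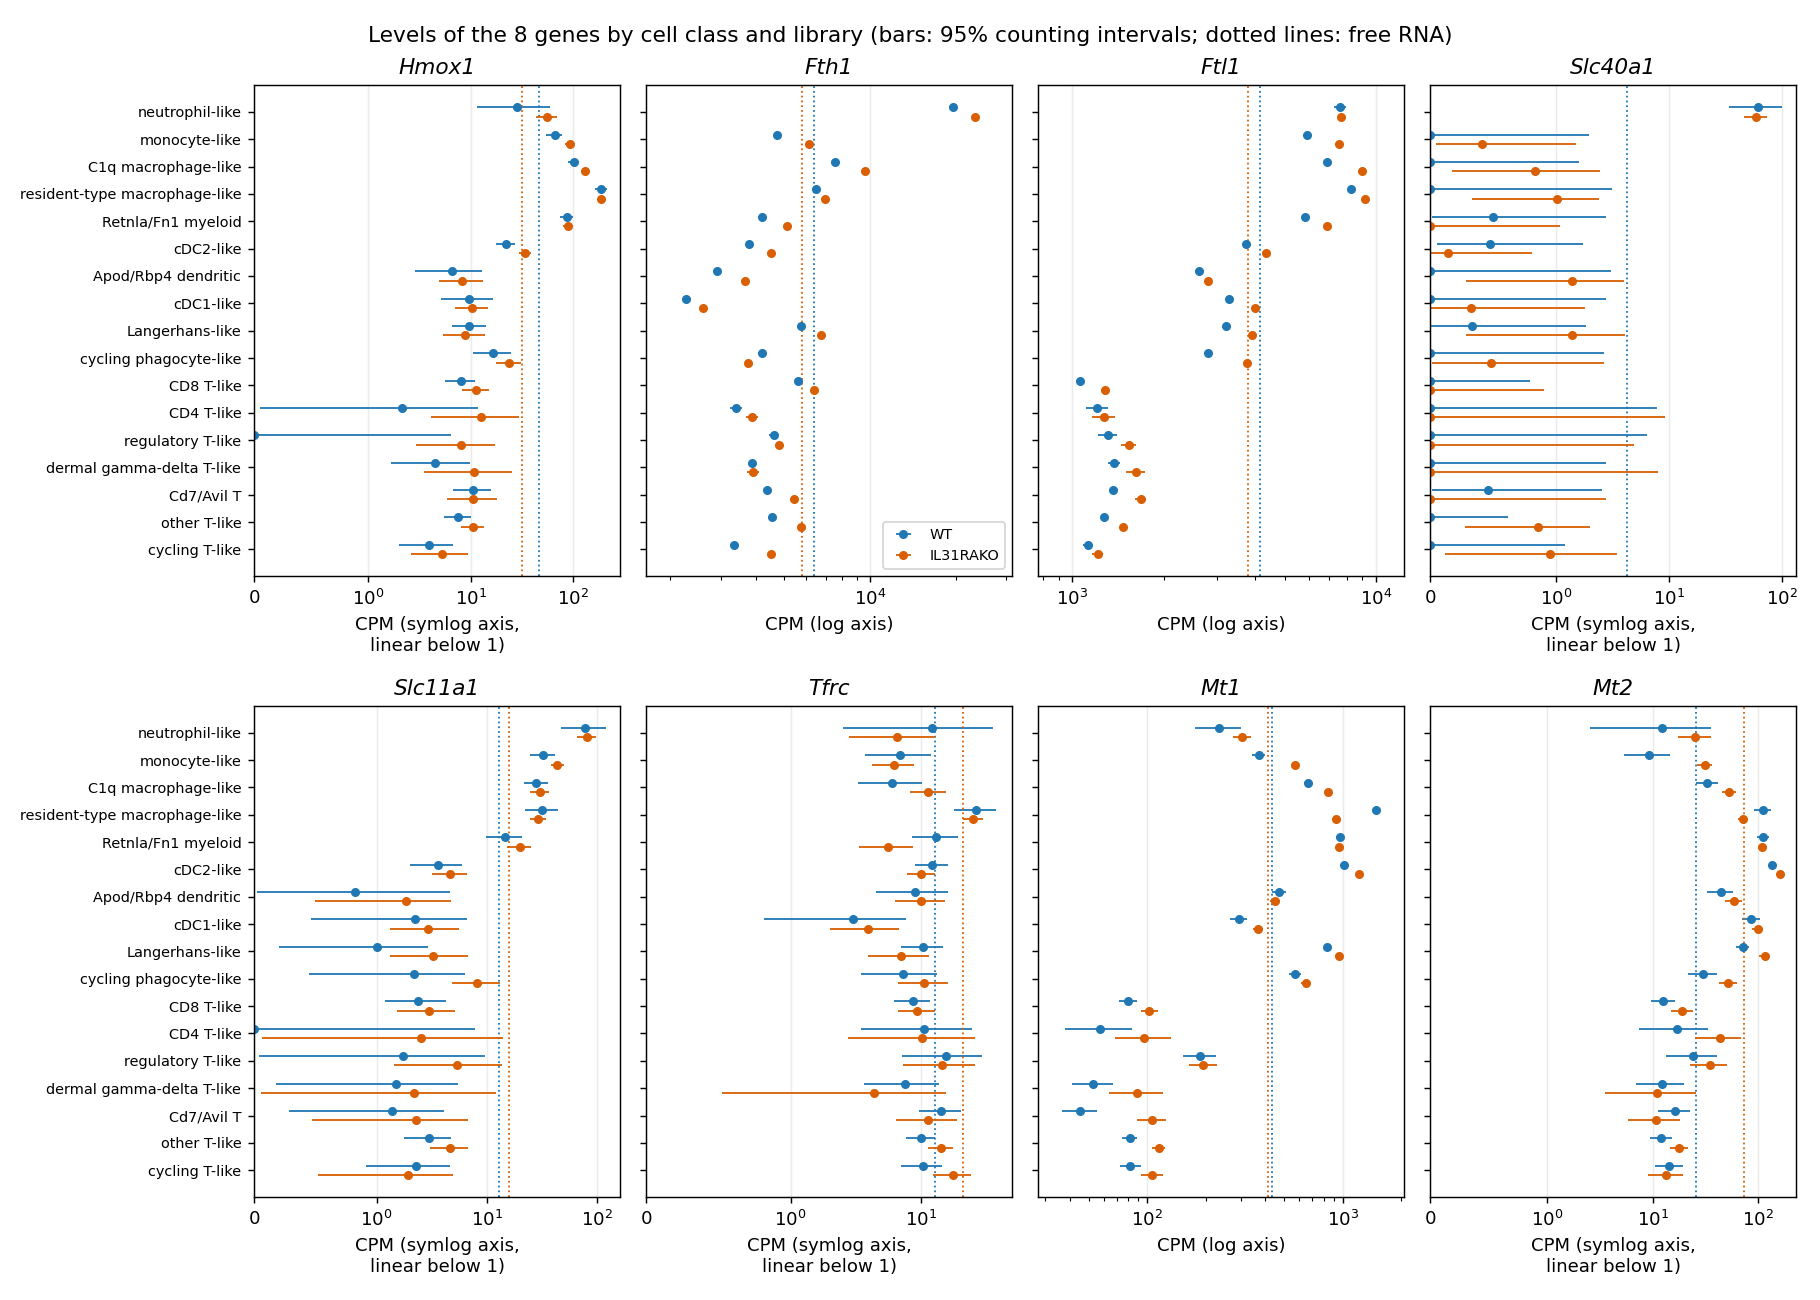
Level of each gene by cell class, in CPM on log axes (Fth1, Ftl1, Mt1) or symmetric log axes that are linear below 1 (the others), blue for WT and orange for IL31RAKO, with exact Poisson 95% intervals as bars and dotted lines at each library's free RNA. Slc40a1 stands at 61.0 and 58.5 CPM in neutrophil-like cells and at or below 1.40 in the other 16 classes, and Fth1 reaches 23409 CPM in neutrophil-like cells.

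Mt1 (ENSMUSG00000031765) and Mt2 (ENSMUSG00000031762) lie next to each other on chromosome 8, at 94179082 to 94180327 and 94172664 to 94173568, both on the plus strand. Their promoters are known for metal response elements, bound by the zinc sensor MTF1, and the 250 bases before each start (RefSeq, GRCm38.p6) are shown because both genes were past the fold downward in 1 class and upward in another. Capitals mark matches to the element's core, TGCACNC or TGCGCNC on either strand.
Mt2, chr8:94172368-94172617, plus strand: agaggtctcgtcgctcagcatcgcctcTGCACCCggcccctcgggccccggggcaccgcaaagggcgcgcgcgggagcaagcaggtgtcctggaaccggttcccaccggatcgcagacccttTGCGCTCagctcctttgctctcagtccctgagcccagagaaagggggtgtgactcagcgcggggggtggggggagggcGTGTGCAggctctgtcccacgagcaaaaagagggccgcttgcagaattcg
Mt1, chr8:94178839-94179088, plus strand: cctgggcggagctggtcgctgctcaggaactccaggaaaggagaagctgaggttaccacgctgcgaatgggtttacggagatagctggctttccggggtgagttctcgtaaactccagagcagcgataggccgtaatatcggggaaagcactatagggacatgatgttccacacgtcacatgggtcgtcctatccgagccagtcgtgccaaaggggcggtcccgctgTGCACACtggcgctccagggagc
The Mt2 window held 3 cores, starting 223, 128 and 50 bases before the start, and the Mt1 window 1, at 23. Of 32536 promoters of the same length, 21.5% held at least 1 core and 1.28% held 3 or more. Other annotated starts of Mt1 lie 122 and 152 bases downstream, and those of Mt2 46 and 242, so the windows do not cover the sequence just before those. The Mt2 window also held 1 antioxidant response core, TGACNNNGC, which 10.2% of promoters hold. A match is a description and not a site of binding. Of the other genes matched in the promoter table, Tfrc held 2 overlapping cores in 1 of its 2 windows, and Slc11a1, Ftl1 and Fth1 held none.

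Myeloid and dendritic classes carried most metallothionein RNA among leukocytes. Mt1 was highest in resident-type macrophage-like cells of WT skin, at 1478 CPM, where it was 924 in IL31RAKO. In cDC2-like cells it was 1013 and 1219, in Retnla/Fn1 myeloid cells 971 and 961 and in Langerhans-like cells, the dendritic cells of the epidermis, 835 and 953. T classes lay between 45.3 and 193 CPM, below the 433 and 416 CPM of free RNA. Mt2 was highest in cDC2-like cells, at 136 and 162 CPM, followed by Retnla/Fn1 myeloid cells at 112 and 109.

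Keratinocyte-like and fibroblast-like cells, which are not leukocytes, had more of both genes than any of the 17 classes. Keratinocyte-like cells, 85 and 44 of which were in the sort, held 1696 and 2064 CPM of Mt1 and 1365 and 1899 of Mt2. Fibroblast-like cells, 43 in WT and 44 in IL31RAKO, held 2281 and 1859 CPM of Mt1 and 1525 and 1226 of Mt2. Endothelial-like cells, 65 in WT and 29 in IL31RAKO, held 232 and 269 CPM of Mt1, less than many myeloid classes, and 292 and 321 of Mt2. The balance of the pair was 1.24 and 1.09 UMIs of Mt1 per UMI of Mt2 in keratinocyte-like cells, 1.496 and 1.52 in fibroblast-like cells and 0.796 and 0.838 in endothelial-like cells. In the myeloid and dendritic classes compared between genotypes it ran from 3.44 and 3.76 in cDC1-like cells over 7.47 and 7.54 in cDC2-like and 13.5 and 12.9 in resident-type macrophage-like cells to 40.9 and 18.3 in monocyte-like cells. Over the 34 points Mt1 was most like Ctsh (r 0.939), Ctsz (0.931) and Prcp (0.928), the first pair encoding lysosomal proteases, and Mt2 was most like Vwf (0.836), Cpq (0.829) and Dpep2 (0.818). Mt1 and Mt2 had an r of 0.815 with each other.

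Between genotypes, most ratios of the 8 genes lay modestly above 1. There were 84 pairs of a gene and a class with 50 or more UMIs, out of 136. Of these, 13 (15.5%) were past the fold upward, where 4.2% of all 103247 pairs of a gene and a class were, and 2 (2.38%) were past it downward, where 4.25% were. Intervals lay wholly above 1 for 54 and wholly below 1 for 3, against 7.1% and 7.37% of all pairs, and the high counts of the ferritins make their intervals narrow. Ratios themselves exceeded 1 in 72 of the 84, where 42.4% (neutrophil-like) to 57.0% (resident-type macrophage-like) of all genes measured in a class did.

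**Figure D3:**
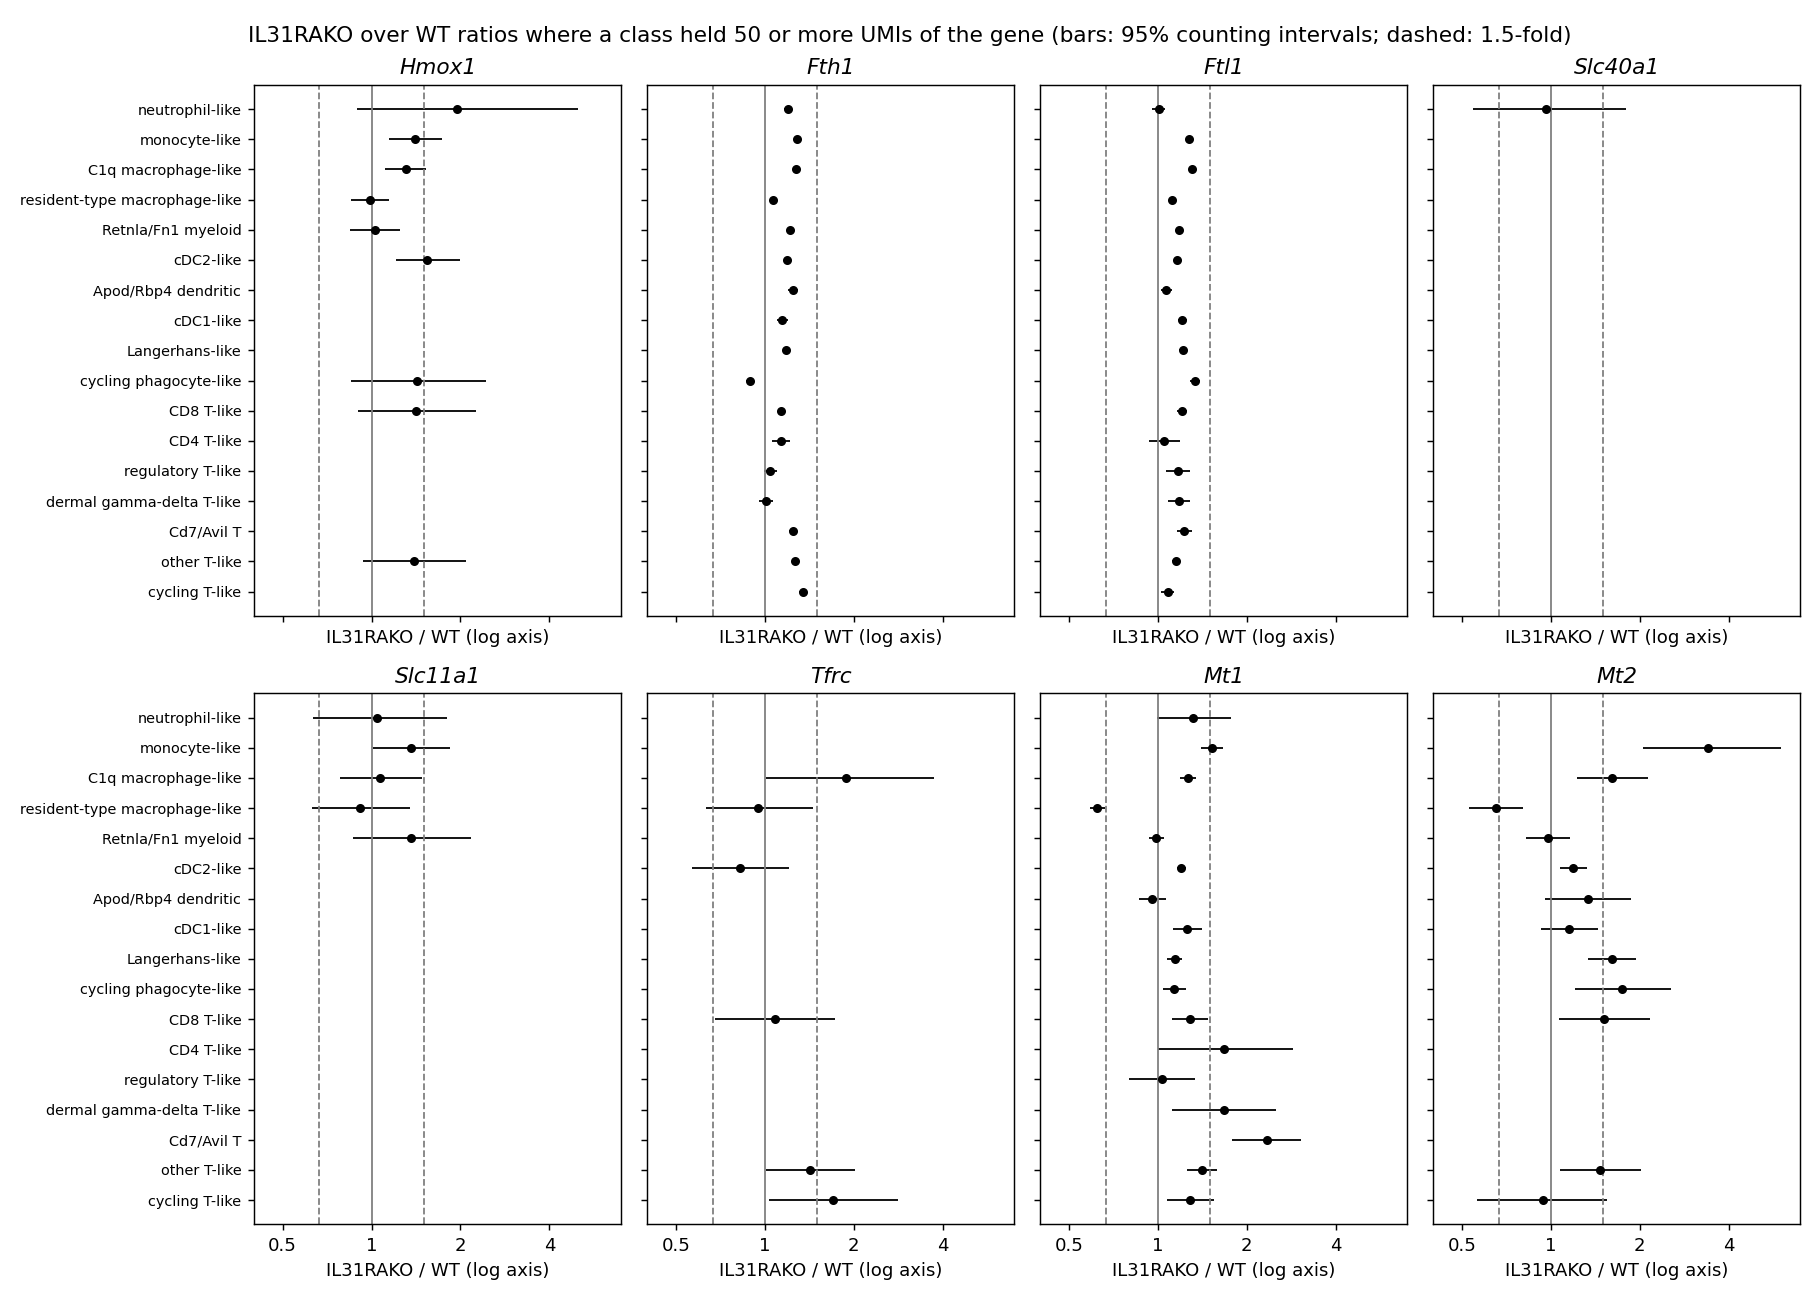
IL31RAKO over WT ratio of each gene in each class with 50 or more of its UMIs, log axes, with 95% counting intervals as bars, a solid line at 1 and dashed lines at 1.5-fold. Both ferritins lie just above 1 in nearly every class, and Mt1 and Mt2 lie below 1 in resident-type macrophage-like cells, at 0.625 and 0.651.

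Ferritin RNA was slightly higher in the IL31RAKO library in nearly every class, and in none past 1.5-fold. The Fth1 ratio lay between 0.893 and 1.35 with a median of 1.19, and its interval was above 1 in 14 of 17 classes. It was 1.20 in neutrophil-like cells [1.16 to 1.24], 1.29 in monocyte-like cells [1.26 to 1.32], 1.27 in C1q macrophage-like cells [1.25 to 1.30] and 1.07 in resident-type macrophage-like cells [1.05 to 1.10]. Cycling T-like cells were highest at 1.35 [1.31 to 1.39], from 3344 to 4513 CPM. Regulatory T-like cells at 1.05 [0.995 to 1.10] and dermal gamma-delta T-like cells at 1.01 [0.955 to 1.06] had intervals that include 1. Of all genes measured in a class, 78.9% in neutrophil-like, 89.4% in monocyte-like, 56.3% in resident-type macrophage-like and 92.5% in cycling T-like cells had a ratio at or below that of Fth1.

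Cycling phagocyte-like cells were the exception for Fth1, with 4175 CPM in WT and 3727 in IL31RAKO, a ratio of 0.893 [0.863 to 0.924]. Their Ftl1 level went the other way, at 2795 and 3750.3 CPM, a ratio of 1.34 [1.29 to 1.39], so that the balance of the chains moved from 1.49 to 0.994. The markers of other classes within these cells differed too. The 3 markers of the Retnla/Fn1 class summed to 488 CPM in WT and 1485 in IL31RAKO, and the 5 of C1q macrophages to 2185 and 1685, with none of them at 0. The part of that mixture in the result was not tested. With Leiden clusters in place of marker gates, where the cluster held 64 and 86 cells, the log2 ratio of Fth1 turned from -0.16 to 0.16.

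The Ftl1 ratio exceeded 1 in all 17 classes, with an interval above 1 in 15 and a median of 1.18. It was 1.30 in C1q macrophage-like cells [1.28 to 1.33], 1.28 in monocyte-like cells [1.25 to 1.30], 1.12 in resident-type macrophage-like cells [1.09 to 1.14] and 1.21 in CD8 T-like cells [1.16 to 1.26]. In neutrophil-like cells it was 1.01 [0.958 to 1.06] while Fth1 stood at 1.20, and the balance of heavy to light chain there went from 2.57 [2.44 to 2.71] to 3.06 [2.99 to 3.13]. The share of all genes in a class with a ratio at or below that of Ftl1 ran from 58.0% in CD4 T-like to 90.7% in cycling phagocyte-like cells. It was 58.1% in neutrophil-like and 63.9% in resident-type macrophage-like cells.

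Free RNA held less of both ferritins in the IL31RAKO library, 5795 against 6376 CPM of Fth1 and 3790 against 4133 of Ftl1. Neutrophil marker RNA in other classes differed between the libraries. The 7 neutrophil markers summed in the 16 other classes to 0.0739% to 0.242% of their neutrophil-like level in WT and to 0.216% to 0.426% in IL31RAKO. The part of free RNA and of neutrophil RNA in the ferritin ratios was not tested.

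For Slc40a1, measured in 1 of 17 classes, and Slc11a1, measured in 5, no ratio within a class was past the fold. In neutrophil-like cells Slc40a1 had a ratio of 0.960 [0.545 to 1.80] and Slc11a1 1.04 [0.633 to 1.80]. Slc11a1 stood at 1.36 in monocyte-like cells [1.01 to 1.84], 1.07 in C1q macrophage-like [0.780 to 1.48], 0.911 in resident-type macrophage-like [0.630 to 1.35] and 1.35 in Retnla/Fn1 myeloid cells [0.864 to 2.17]. The interval of Slc11a1 in monocyte-like cells lay above 1 and the others include 1. Several reach past 1.5, so differences of that size were not excluded there at this depth.

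Tfrc was past the fold upward in 2 of 6 classes measured. It went from 6.05 CPM (14 UMIs) to 11.4 (41 UMIs) in C1q macrophage-like cells, a ratio of 1.89 [1.01 to 3.75], where 4.39% of genes were past the fold upward. In cycling T-like cells it went from 10.4 CPM (32 UMIs) to 17.7 (37 UMIs), a ratio of 1.71 [1.04 to 2.83], where 4.09% were. The first was 1.44 with stricter marker gates and the second 1.46 with Leiden clusters, neither past the fold. All 4 levels lay below free RNA, which itself was higher in IL31RAKO, at 21.1 against 12.7 CPM, and with 10% of each class's UMIs taken as free RNA and subtracted the log2 ratios were 0.96 in C1q macrophage-like and 0.78 in cycling T-like cells. In resident-type macrophage-like cells, where Tfrc was highest, the ratio was 0.947 [0.634 to 1.45].

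Hmox1 was past the fold upward in 2 of 9 classes measured. In neutrophil-like cells 7 UMIs in WT and 68 in IL31RAKO gave 28.5 and 55.3 CPM, a ratio of 1.94 [0.893 to 5.01], where 6.86% of genes were past the fold upward. Among cells with 1000 or more UMIs that ratio was 1.27, not past the fold. In cDC2-like cells 92 and 233 UMIs gave 22.0 and 34.0 CPM, a ratio of 1.55 [1.21 to 1.99], where 2.35% were. A single cell held 47 of those 233, and without the richest cell of each library the ratio was 1.33. In neutrophil-like and cDC2-like cells the WT level lay below WT free RNA (46.7 CPM), and the IL31RAKO level above IL31RAKO free RNA (31.6 CPM). Monocyte-like cells stood at 1.40 [1.14 to 1.73] and C1q macrophage-like cells at 1.30 [1.11 to 1.53], where 1 cell held 52 of 472 UMIs. In resident-type macrophage-like cells, where the level was highest, the ratio was 0.987 [0.850 to 1.15].

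The metallothioneins made up 9 of the 13 upward calls and both downward ones. Resident-type macrophage-like cells, with ratios of 1.07 for Fth1 and 1.12 for Ftl1, had less of both in IL31RAKO. Mt1 went from 1478 CPM (1724 UMIs) to 924 (4476 UMIs), a ratio of 0.625 [0.591 to 0.661], and Mt2 from 110 CPM (128 UMIs) to 71.4 (346 UMIs), a ratio of 0.651 [0.530 to 0.803], where 3.7% of genes were past the fold downward. The share of thinned cells with an Mt1 UMI was 48.6% in WT [43.6 to 53.7] and 44.0% in IL31RAKO [41.3 to 46.7]. The 90th percentile was 4 UMIs per thinned cell in WT and 3 in IL31RAKO, and the top 5% of cells held 38.3% and 33.5% of the UMIs.

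Other RNAs of this class also differed between the libraries. The sum of Fos, Jun, Hspa1a and Hspa1b, genes induced by tissue handling and heat stress, was 4679 CPM in WT and 2967 in IL31RAKO. It was lower in IL31RAKO in 13 of the 16 other classes too. Haemoglobin RNA was 888 CPM in WT and 11.6 in IL31RAKO, but 1026 of the 1036 WT UMIs were in 1 cell, and without that cell Mt1 in WT was 1483 CPM. The 6 keratinocyte markers, of a cell rich in Mt1, summed to 71.2 and 50.8 CPM, the 5 fibroblast markers to 110 and 75.3, none at 0, all below free RNA. Mitochondrial UMIs were 2.86% and 2.76%. The part of handling-induced RNA in the result was not tested. With Leiden clusters in place of marker gates the ratios of this class were 0.780 for Mt1 and 0.858 for Mt2, no longer past the fold.

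Metallothionein ratios exceeded 1 in 14 of 17 classes for Mt1 and 9 of 12 for Mt2, where 42.4% to 57.0% of all genes in each of the 17 classes did. Besides resident-type macrophage-like cells, the metallothionein ratios lay below 1 for Mt1 in Retnla/Fn1 myeloid (0.990) and Apod/Rbp4 dendritic cells (0.957), and for Mt2 in Retnla/Fn1 myeloid (0.977) and cycling T-like cells (0.940), with intervals that include 1. In monocyte-like cells Mt1 went from 372 to 567 CPM, a ratio of 1.52 [1.40 to 1.66], and Mt2 from 9.09 CPM (17 UMIs) to 30.99 (149 UMIs), a ratio of 3.41 [2.06 to 6.01], where 4.41% of genes were past the fold upward. The share of thinned monocyte-like cells with an Mt1 UMI was 23.1% in WT [19.0 to 27.6] and 30.6% in IL31RAKO [27.8 to 33.6]. For Mt2 it was 1.52% [0.561 to 3.28] and 1.83% [1.09 to 2.87], intervals that overlap, and both levels lay below those of free RNA. With Leiden clusters the ratios were 1.11 for Mt1 and 1.24 for Mt2, neither past the fold, and the Mt1 call was lost under 3 other alternatives too.

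Mt2 was also past the fold in C1q macrophage-like cells, from 32.8 to 52.9 CPM (1.61 [1.23 to 2.13]). In Langerhans-like cells it went from 71.0 to 115 CPM (1.61 [1.34 to 1.95]), with 47 of 246 UMIs in 1 cell, where 4.31% of genes were past the fold upward. In cycling phagocyte-like cells it went from 29.7 to 51.6 CPM (1.74 [1.20 to 2.56]), where 4.72% were. In CD8 T-like cells it went from 12.5 to 19.0 CPM (1.52 [1.06 to 2.17]), where 2.79% were. Free RNA held 25.5 CPM of Mt2 in WT (6 UMIs) and 73.7 in IL31RAKO (14 UMIs), so 3 of these 4 levels in IL31RAKO lay below it, the exception being Langerhans-like cells. With free RNA subtracted the log2 ratio in CD8 T-like cells was 0.22. The calls in C1q macrophage-like, Langerhans-like and CD8 T-like cells were lost under 2, 3 and 3 of the alternatives, stricter marker gates among them, with ratios down to 1.297, 1.27 and 1.17.

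In T classes, Mt1 was past the fold upward in Cd7/Avil T cells, from 45.3 CPM (98 UMIs) to 106 (139 UMIs), a ratio of 2.34 [1.79 to 3.06], where 3.95% of genes were. There, 28 of the 139 UMIs were in 1 cell. Dermal gamma-delta T-like cells went from 52.9 to 89.0 CPM (1.68 [1.11 to 2.51]), where 4.36% were, and CD4 T-like cells from 57.3 to 96.2 CPM (1.68 [0.998 to 2.86]), where 5.53% were. All 3 classes lay below the free RNA levels of 433 and 416 CPM, which differed little between libraries, and with free RNA subtracted the log2 ratios grew to 5.03 in Cd7/Avil T, 2.30 in dermal gamma-delta T-like and 1.97 in CD4 T-like cells, since little of the WT level was then left. Without the richest cell of each library the ratio in dermal gamma-delta T-like cells was 1.42, not past the fold. In cDC2-like cells, with the most metallothionein UMIs, ratios were 1.20 [1.16 to 1.25] for Mt1 and 1.19 [1.08 to 1.32] for Mt2.

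Summed over all cells the ratios of 4 genes were larger than within most classes, and the libraries held different mixtures of classes. In all cells the ratio was 3.18 [2.21 to 4.68] for Slc40a1, 2.02 [1.78 to 2.29] for Slc11a1, 1.79 [1.68 to 1.91] for Hmox1 and 1.55 [1.54 to 1.56] for Ftl1, so that 4 of the 8 genes were past the fold upward, where 5.37% of genes were. Of the UMIs of the compared classes, neutrophil-like cells held 0.666% in WT and 2.51% in IL31RAKO, monocyte-like cells 5.07% and 9.79% and resident-type macrophage-like cells 3.16% and 9.87%. Over the 17 classes the ratio of Slc40a1 was 3.69 as measured and 1.70 with IL31RAKO levels put at the WT mixture of classes, or 1.20 with both at the IL31RAKO mixture. These values of Slc40a1 include 16 classes of 0 to 5 UMIs per library, and the ratio in neutrophil-like cells was 0.960. For Slc11a1 it was 2.02 and 1.26, for Hmox1 1.93 and 1.23, for Ftl1 1.60 and 1.20, and for Fth1 1.27 and 1.20. The share of each class in a sort of 1 pool per genotype has no replicate check either.

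**Figure D4:**
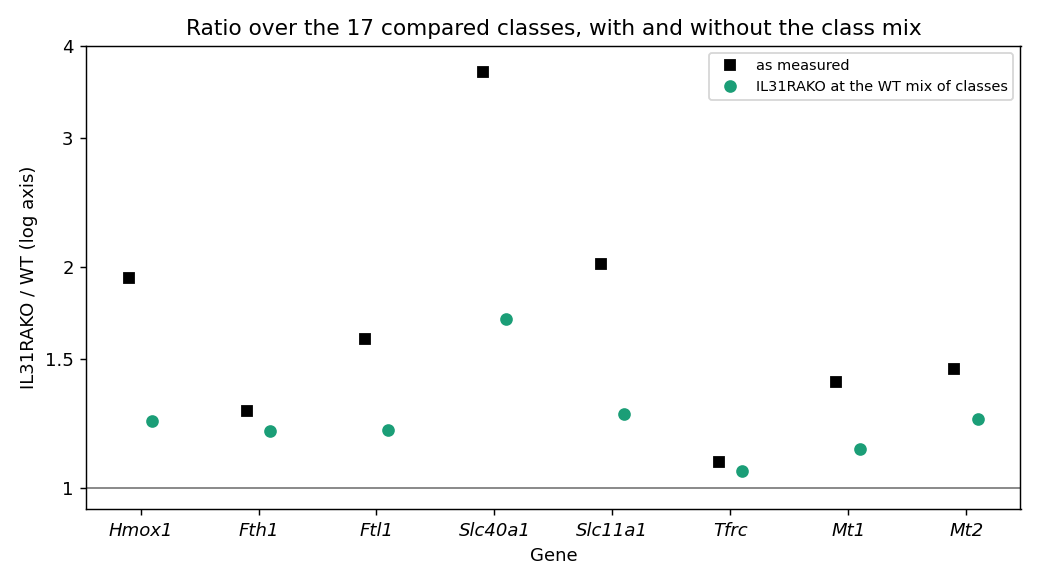
IL31RAKO over WT ratio of each gene over the 17 compared classes, log axis, as measured (black squares) and with IL31RAKO levels at the WT mixture of classes (green circles). The squares reach 3.69 for Slc40a1, and the circles lie between 1.06 for Tfrc and 1.70 for Slc40a1.

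Other genes of iron and metal handling were read from 7 lists in the same 17 classes, as pairs of a gene and a class with 50 or more UMIs, against the 4.2% upward and 4.25% downward of all pairs. Iron storage and ferritinophagy had 0 of 89 pairs past the fold upward and 3 downward. Iron uptake and transport had 7 of 69 upward (10.1%) and 0 downward. Iron sensing had 7 of 48 upward (14.6%) and 1 downward. Heme uptake, export and breakdown had 4 of 67 upward and 1 downward, and heme synthesis 2 of 77 in each direction. Targets of NRF2, the regulator of antioxidant genes, had 7 of 138 upward and 4 downward, and zinc transport and metallothionein partners 0 of 61 upward and 2 downward. The median log2 ratio of the NRF2 list was above that of all genes in 16 of 17 classes, with a middle value of 0.10. Iron uptake was above in 12 of 15 (middle value 0.23) and iron sensing in 12 of 17 (0.17), both with larger middle values. Iron storage was above in 12 of 17 (0.06), heme uptake in 11 of 17 (0.05) and heme synthesis in 12 of 16 (0.06). The zinc list was above in 7 of 15, with a middle value of -0.04.

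In these lists 3 genes had an interval wholly past the fold in a class. Lcn2, which binds the siderophores by which bacteria take up iron, went from 2.14 CPM (4 UMIs) to 11.6 (56 UMIs) in monocyte-like cells, a ratio of 5.45 [2.01 to 20.7]. In neutrophil-like cells, which make far more of it, it went from 240 to 434 CPM (1.81 [1.38 to 2.41]), a pair picked after its values were seen. Ltf (lactoferrin) went from 2.51 CPM (15 UMIs) to 16.998 (99 UMIs) in the remaining T-like cells, a ratio of 6.78 [3.92 to 12.6], with 13 of the 99 in 1 cell, and is a granule protein of neutrophils. Free RNA held 8.50 CPM of Ltf and 4.25 of Lcn2 in WT, and 0 of both in IL31RAKO. The WT levels of Ltf in the remaining T-like cells and of Lcn2 in monocyte-like cells lay below these. Hif1a, a transcription factor stabilised when oxygen or iron is low, went from 49.7 to 92.6 CPM in C1q macrophage-like cells (1.87 [1.504 to 2.33]). Of the 7 upward pairs of the sensing list 6 were Hif1a, in neutrophil-like, monocyte-like, C1q macrophage-like, cDC2-like, Apod/Rbp4 dendritic and Cd7/Avil T cells, with ratios from 1.51 to 2.00. Free RNA held more Hif1a than most of these classes, at 93.5 and 121 CPM.

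The further pairs past the fold given here were also picked after their values were seen. Cd163, the receptor by which macrophages take up haemoglobin, went from 8.21 to 19.2 CPM in C1q macrophage-like cells (2.34 [1.39 to 4.12]). Free RNA held 12.7 CPM of Cd163 in WT and 10.5 in IL31RAKO, so the WT level lay below it. Slc39a14, a carrier of iron and zinc, went from 5.14 to 12.2 CPM in resident-type macrophage-like cells (2.37 [1.02 to 6.71]). In the same class Ncoa4, which delivers ferritin to lysosomes, went from 13.7 to 7.22 CPM (0.526 [0.284 to 1.02]). In neutrophil-like cells the ferritin iron chaperone Pcbp1 went from 220 to 138 CPM (0.629 [0.461 to 0.872]), where 9.82% of genes were past the fold downward. Free RNA held 200 CPM of Pcbp1 in WT and 153 in IL31RAKO, so the IL31RAKO level lay below it. Slc7a11, a cystine carrier and NRF2 target, was past the fold upward in 5 classes. Its ratios ran from 1.55 in resident-type macrophage-like cells (7 and 45 UMIs, [0.693 to 4.07]) to 1.71 in monocyte-like cells [1.26 to 2.36]. Free RNA held 34.0 CPM of it in WT and 0 in IL31RAKO. The WT levels of all 5 classes, from 6.00 to 27.8 CPM, lay below that WT value.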

How the data were processed

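The deposited values were raw UMI counts per gene and barcode, 1 table per library, with no normalisation, and each table listed 737280 barcodes. The submitters' processing notes name Cell Ranger 3.1, Seurat 3.2.2 and the mm10 build, and what each tool did is not given in the sources used here. Barcodes with 500 or more UMIs, 250 or more genes and under 10% mitochondrial UMIs were kept as cells. Cells were scored on 28 lists of marker genes. The lists for natural killer and cytotoxic, type 2 innate lymphoid, erythroid and skeletal muscle cells set no gate. Cells meeting 2 or more incompatible gates (489 and 930), which include doublets, and those meeting none (1770 and 1788) were in no class, and Scrublet was an alternative. Counts were summed per class and library and scaled to CPM. Intervals are exact Poisson for levels, exact binomial (Clopper-Pearson) for shares and exact conditional binomial for ratios, all at 95%, with a share of 0 limited at 3 cells of the total, and PCR and sampling beyond counting are not in them. With 1 library per genotype no test was possible. Likeness is the Pearson correlation of log2(CPM + 10) over genes with 50 or more CPM in a class, the 3 highest being named per gene. Genes of the 7 lists were named where the ratio interval lay wholly past 1.5-fold, at most 6 per class. The ratio step was run on counts simulated with counting error alone, for the neutrophil-like and resident-type macrophage-like classes. Such a run cannot speak to variation between mice, pools or cells. Hairpins were searched in GENCODE vM21 transcripts and promoters taken from RefSeq. Promoters of Hmox1 and Slc40a1 and proteins were not used here. The 8 genes, the lists and the marker genes were chosen with earlier results of these data known. Python 3.11.15, numpy 2.4.6, scipy 1.17.1, pandas 2.3.3, scanpy 1.11.5 and matplotlib 3.10.9 were used.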

Additional observations from a re-analysis of the deposited data

Results flagged for a closer look

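For 3 genes a class went against the others between the genotypes, and none of these differences between classes was tested, since there was 1 library per genotype. Fth1 had a ratio of 0.893 in cycling phagocyte-like cells where 14 classes had intervals above 1, up to 1.35 in cycling T-like cells. With Leiden clusters in place of the gates its log2 ratio was 0.16. Mt1 had a ratio of 0.625 in resident-type macrophage-like cells where 11 classes had intervals above 1, up to 2.34 in Cd7/Avil T cells. Mt2 had a ratio of 0.651 in the same class where 7 had intervals above 1, up to 3.41 in monocyte-like cells.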

How the results depend on the processing

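The ratios were recomputed under 12 alternatives in cell filters, gates, scaling, free RNA and count minimum. Of 962 ratios so obtained 926 kept their direction, and the 15 called ratios kept theirs in every alternative that could be run for them, 3 of them staying past 1.5-fold throughout (Mt2 in cycling phagocyte-like, Mt1 in CD4 T-like and in Cd7/Avil T cells). These counts include the count minimums of 20 and 200 UMIs. Those change which ratios are read and not their values, so no direction or call could be lost under them. The 13 upward calls became 5 with genes of 200 or more UMIs and lay between 11 and 18 otherwise. The 2 downward calls became 1 under 5% mitochondrial UMIs and with the mean of each cell's own CPM, 4 with genes of 20 or more UMIs and 0 of 71 ratios with Leiden clusters, under which the class held other cells (856 and 1816). With those clusters Mt1 in resident-type macrophage-like cells stood at 0.780, Mt2 at 0.858, Mt1 in monocyte-like cells at 1.11 and Mt2 there at 1.24. The cause was not tested. Shares of cells rose with depth, and 138 of 168 moved when thinned to 2000 UMIs. No paired analysis was possible because each genotype had 1 library, both labelled replicate 1.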
